A study of Arabidopsis thaliana with 36 samples.

Results

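Midday polysome loading was compared in wild-type Arabidopsis thaliana seedlings as the difference between RNA bound to large polysomes and RNA free of polysomes, 6 h after lights on (Zeitgeber time 6, ZT6). The comparison takes the 3 large polysomal and the 3 non-polysomal arrays of that time, chosen by their labels, 6 of the 36 arrays of the series. The seedlings were of the Columbia accession and 10 days old, with no transgene and no treatment; aerial parts were harvested. They had grown on full-strength Murashige and Skoog agar with 1% sucrose, in days of 16 h light and 8 h dark. The 36 arrays are 12 groups of 3 replicates, the large polysomal, small polysomal and non-polysomal fractions at ZT0, ZT6, ZT12 and ZT18; plants overexpressing CCA1, which the design also names, were not analysed here. Nothing states that the replicates of a group were grown apart, so a p-value here reflects only how far these samples spread.

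An mRNA engaged by many ribosomes sediments with large polysomes, one engaged by few with small polysomes, and one with none or a single ribosome stays in the non-polysomal part of the gradient. The share of a transcript found in large polysomes is commonly read as a measure of how actively it is translated, and it also depends on how long its coding sequence is, since a long one has room for more ribosomes. In leaves this share changes over the day and with light and sugar supply, and transcripts of ribosomal proteins are a known example of a group whose loading is regulated.

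The values are log2 expression per probe set, and each is relative to the average mRNA on its own array. A positive difference therefore means that a transcript made up more of the large polysomal than of the non-polysomal mRNA, not that more molecules were there. In whole aerial parts, a low level within a fraction from fewer cells of a type and one from less RNA per cell cannot be told apart. A difference between fractions is an average over the cell types and cannot be assigned to any of them. Single-gene probe sets covered 13355 genes, and 6845 of them were tested (a mean of at least 4 over the 36 arrays), and 925 of the tested nuclear genes have a symbol in the gene table; the others are given by their AGI code, with no role. The lower end of the scale was 2.20.

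Replicate arrays of a ZT6 fraction correlated at 0.973 to 0.988, and large polysomal with non-polysomal arrays at 0.830 to 0.862. The leaf marker RCA, the activase of Rubisco, was at 12.96 in large polysomal and 12.87 in non-polysomal RNA. Of 5 root markers, 4 averaged 3.22 or less in the large polysomal arrays and 2.45 or less in the non-polysomal arrays. The exception was PYK10, a beta-glucosidase abundant in roots, at 10.94 in large polysomal and 9.89 in non-polysomal RNA. Of markers of other cell types, the guard cell genes FMA and AT1G11850 were at 5.54 and 7.42 in large polysomal and 5.33 and 5.57 in non-polysomal RNA, and the vasculature marker AT5G04080 was at 9.54 in large polysomal and 10.37 in non-polysomal RNA. The 27 probe sets for bacterial polyadenylated control transcripts averaged 3.87, 3.80 and 4.02 in the large polysomal arrays and 5.14, 4.96 and 4.50 in the non-polysomal arrays, a difference of -0.97 ± 0.43 (SD, n = 3). The 18 hybridisation control probe sets differed the same way, by -0.32, -0.67 and -0.64 in the 3 pairs (-0.54 ± 0.19). Signal at the 3′ end over that at the 5′ end of an actin control was 8.79, 8.20 and 7.51 in large polysomal and 7.45, 6.94 and 7.74 in non-polysomal arrays (log2), which overlapped only through replicate 3. The same measure of a GAPDH control was 3.32, 3.11 and 2.96 in large polysomal and 2.58, 2.57 and 2.95 in non-polysomal arrays, with all large polysomal arrays above all non-polysomal ones. The part of these differences in the results was not tested.

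Over all genes, 1965 were higher in large polysomal RNA (28.7% of those tested) and 2087 lower (30.5%), at a Benjamini-Hochberg adjusted p under 0.05 in limma. The counts of each list below are to be read against these shares. This fit left out the pairing of the fractions by replicate number. With the replicate number as a block, 2238 genes were higher (32.7%) and 2351 lower (34.3%). The log2 difference was over 1, a factor of 2, in 1130 of the genes called higher (16.5%) and under -1 in 1302 of those called lower (19.0%). All 3 large polysomal arrays lay above all 3 non-polysomal arrays in 2264 genes (33.1%) and below them in 2388 (34.9%). In 81.7% of genes the 3 same-numbered pairs differed in one direction, and the median difference over all genes was -0.02. The small polysomal mean lay between the other means for 83.4% of the genes called higher, 82.4% of those called lower and 32.2% of those not called.

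The largest rise was in AT1G64370, at 10.55, 10.18 and 10.80 in large polysomal RNA and 4.99, 6.26 and 6.19 in non-polysomal RNA. Every large polysomal array was far above every non-polysomal one, a difference of 4.70 ± 0.28 (SE, limma adjusted p = 2.27e-13). Next came AT1G04800 (3.72 ± 0.23), AT4G34290 (3.63 ± 0.26), AT5G45350 (3.60 ± 0.26) and AT2G10940 (3.52 ± 0.22). The largest fall with both groups clear of the lower end was in AT3G27340, at 6.03, 5.67 and 5.79 in large polysomal RNA and 9.72, 9.97 and 10.09 in non-polysomal RNA (-4.10 ± 0.29, adjusted p = 1.73e-12). It was followed by AT1G53030 (-4.02 ± 0.25), AT2G46490 (-3.90 ± 0.26), AT1G65370 (-3.88 ± 0.36) and AT2G22620 (-3.82 ± 0.28). A further 35 called genes had a group mean below 3, where the size of a difference is limited by the scale, 8 of them raised and 27 lowered. AT5G64110 was the most changed of the higher ones, at 5.98, 6.14 and 6.20 in large polysomal and 2.63, 2.56 and 2.61 in non-polysomal RNA, ahead of AT3G50370 (2.58 ± 0.23) and AT1G20390 (2.34 ± 0.51). AT5G55010 led the lower ones, at 2.65, 2.66 and 2.52 in large polysomal and 6.80, 7.49 and 6.91 in non-polysomal RNA, ahead of the plastid gene petG (-3.24 ± 1.10) and AT1G64185 (-3.17 ± 0.26).

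Among genes with a symbol, the subtilisin-like protease gene ATSBT5.2 stood at 9.70, 9.69 and 10.26 in large polysomal RNA and 6.29, 6.66 and 6.80 in non-polysomal RNA, a difference of 3.30 ± 0.27 (adjusted p = 2.69e-11). ATLP-1, for a thaumatin-like protein, was at 8.75, 8.72 and 8.66 in large polysomal RNA and 5.30, 5.96 and 5.58 in non-polysomal RNA (3.10 ± 0.20, adjusted p = 2.84e-13). In both genes the lowest large polysomal value was above the highest non-polysomal value by more than either group's range. CLPP4, a subunit of the chloroplast Clp protease, was higher by 2.85 ± 0.20, and CRR21, a pentatricopeptide protein needed for the editing of a plastid ndhD transcript, by 2.72 ± 0.31. The chromatin gene 3xHMG-box2 (2.99 ± 0.31), the beta-glucosidase gene BGLU33 (2.89 ± 0.21), NET1B, which binds actin filaments (2.57 ± 0.36), and M17 (2.54 ± 0.60) completed this end with COR47 and LEA18.

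At the other end DI21, a drought-induced gene, was at 7.46, 7.82 and 7.83 in large polysomal RNA and 11.06, 11.93 and 11.54 in non-polysomal RNA (-3.80 ± 0.29, adjusted p = 4.61e-12). GLX2-5, a glyoxalase of mitochondria, was at 4.56, 5.08 and 5.07 in large polysomal RNA and 8.50, 8.72 and 8.44 in non-polysomal RNA (-3.65 ± 0.27, adjusted p = 2.55e-12). Neither gene had overlapping groups. The histone chaperone gene ASF1B (-3.49 ± 0.24), SAMBA, a regulator of the anaphase-promoting complex (-3.003 ± 0.25), ATIM, a homologue of TIMELESS (-2.73 ± 0.42), and Fes1C (-2.68 ± 0.23) followed. So did TOPP7, a type 1 protein phosphatase (-2.58 ± 0.21), and SBT3.12, a subtilase (-2.56 ± 0.36), beside LSM3B and RALFL32. Among the calls named in these 3 paragraphs only that of petG ended under an alternative setting, without replicate 2 (-3.17, adjusted p = 0.064) and without replicate 3 (-2.97, adjusted p = 0.083).

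**Figure D1:**
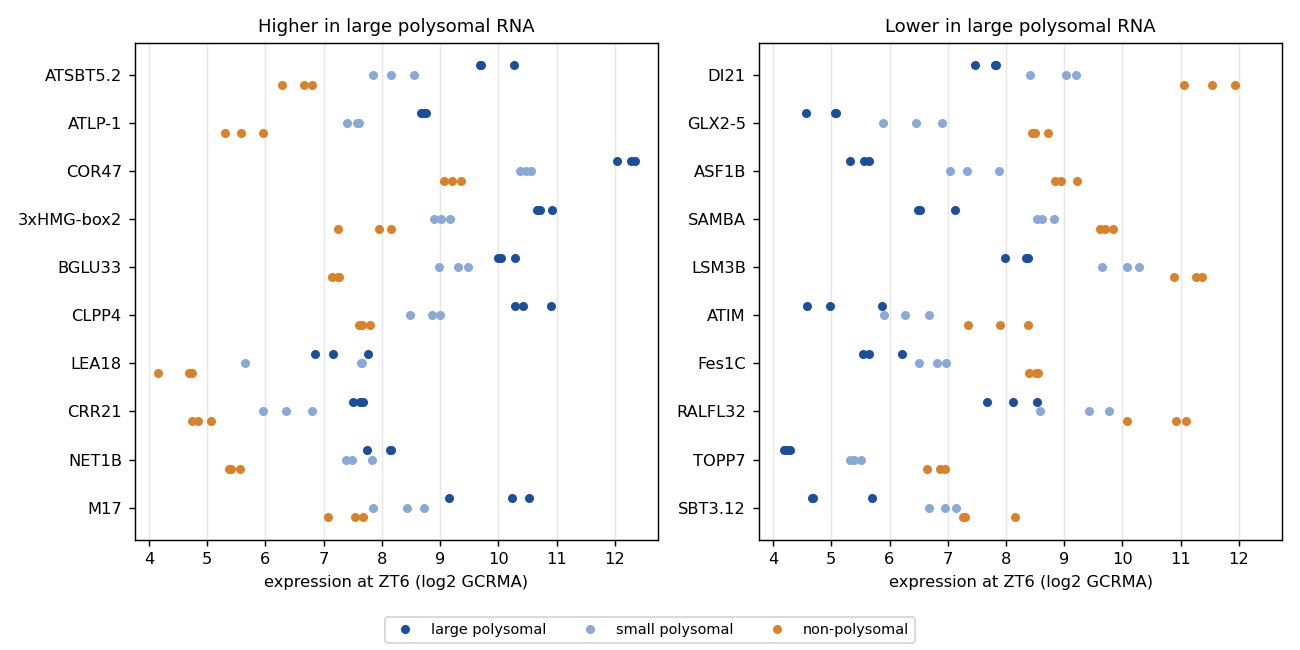
Expression at ZT6 (log2 GCRMA, horizontal axis) of the 10 genes with a symbol that were most raised (left) and most lowered (right) in large polysomal RNA; each point is 1 array, with the large polysomal, small polysomal and non-polysomal arrays in rows from top to bottom within each gene. In all 20 genes the 3 large polysomal points are separate from the 3 non-polysomal points.

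The list of cold-regulated and dehydrin genes lay toward large polysomes, while the drought-induced gene DI21, which is not in it, was the most lowered gene with a symbol. Of the 8 tested cold-regulated, dehydrin and late embryogenesis abundant genes of the list (of 10 on the array), 7 were higher and 1 lower, with a median of 1.69 against -0.02 for all genes. Whether DI21, which fell, and M17, which rose, belong to these families was not checked, so the counts describe the list only. COR47, a dehydrin, was at 12.34, 12.03 and 12.28 in large polysomal RNA and 9.20, 9.06 and 9.35 in non-polysomal RNA (3.01 ± 0.23, adjusted p = 1.02e-11). The dehydrin gene LTI30 was at 9.19, 9.15 and 9.32 in large polysomal RNA and 6.11, 7.24 and 6.96 in non-polysomal RNA (2.45 ± 0.27). LEA18 was at 6.86, 7.17 and 7.76 in large polysomal RNA and 4.16, 4.69 and 4.74 in non-polysomal RNA (2.73 ± 0.44). The groups of these genes did not overlap, and the same held for the other 4 that rose. COR27, a cold- and clock-regulated gene, went the other way, at 5.17, 5.36 and 4.74 in large polysomal RNA and 6.79, 7.55 and 6.17 in non-polysomal RNA (-1.75 ± 0.33, adjusted p = 3.69e-05). The list was written with the loading of COR47 over the whole day already known.

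Of 10 tested genes in the list of histones and replication, 7 were higher and none lower, with a median of 1.08. Named genes of chromatin and division outside this list went both ways. ASF1B, SAMBA and ATIM fell, while a chromatin gene with an HMG-box symbol rose, as given above. All 4 tested genes of core histone H2B were among the 7 higher genes of the list. HTB2 was at 11.58, 11.68 and 11.59 in large polysomal RNA and 8.87, 9.71 and 9.40 in non-polysomal RNA (2.29 ± 0.24, adjusted p = 3.15e-09). HTB1 was higher by 1.86 ± 0.28, HTB4 by 1.65 ± 0.18 and HTB11, which is named here although the rule for named genes does not reach it, by 1.01. Without each ZT6 replicate in turn 7 rises were counted again, and HTB1, HTB2 and HTB4 were among them each time.

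Cytoskeleton and membrane traffic leaned the same way, with 15 of 32 tested genes higher, 4 lower and a median of 0.65. TUB7, a beta-tubulin, was at 10.31, 10.31 and 10.41 in large polysomal RNA and 8.20, 8.08 and 8.31 in non-polysomal RNA (2.15 ± 0.16, adjusted p = 2.82e-12). VPS24.1 (2.06 ± 0.25) and VPS2.1 (1.64 ± 0.24), subunits of the ESCRT-III complex that buds vesicles into endosomes, were higher as well. AtSec20, a membrane fusion protein (-1.52 ± 0.20), RAB6A, a GTPase of the Golgi (-1.13 ± 0.23), and VPS20.1, another ESCRT-III subunit (-0.65 ± 0.19), were lower. The call of VPS20.1 ended without replicate 1 (-0.47, adjusted p = 0.108); the 4 lower calls became 2 without that replicate and 7 with the replicate number as a block. Of 14 tested IQD and NET genes, whose proteins bind calmodulin or actin, 7 were higher, among them NET1D (2.57 ± 0.30) and IQD31 (1.53 ± 0.35). NET3C was the 1 lower member (-0.75 ± 0.27; 2 were lower with the block), and its call ended without any one replicate (-0.81, -0.80 and -0.63 without replicates 1, 2 and 3; adjusted p = 0.053, 0.054 and 0.137).

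Enzymes of detoxification and secondary metabolism were more often higher than lower. Among 48 tested cytochrome P450, glucosyltransferase (UGT), glutathione transferase and peroxidase genes (100 on the array) were 19 higher and 4 lower ones, and the list's median was 0.46. SAPX, the ascorbate peroxidase of the chloroplast stroma, was at 8.57, 7.74 and 8.63 in large polysomal RNA and 6.06, 5.60 and 6.30 in non-polysomal RNA (2.33 ± 0.28, adjusted p = 3.44e-08). GT72B1, a glucosyltransferase, was higher by 1.76 ± 0.31 and AT5G64120 by 2.35 ± 0.68. CYP84A4 (-2.21 ± 0.31), the glutathione transferase gene GSTU18 (-1.80 ± 0.22) and UGT71C5, which glucosylates abscisic acid (-1.72 ± 0.20), were lower. Of 24 tested serine carboxypeptidase-like and beta-glucosidase genes, 10 were higher and 2 lower. The first were led by BGLU33, BGLU25 (2.38 ± 0.31) and scpl48 (1.84 ± 0.25), and included the root marker PYK10 (1.05 ± 0.24). The lower ones were BGLU45 (-1.13 ± 0.44; -0.40, adjusted p = 0.529 without replicate 2) and scpl50 (-0.91 ± 0.28; -0.83, adjusted p = 0.053 without replicate 2 and -0.74, adjusted p = 0.057 without replicate 3).

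Central metabolism gave 9 higher and 2 lower of 18 tested genes for acetyl-CoA, citrate and fatty acids, with a median of 0.55. AAE15, an enzyme that activates fatty acids in the plastid, was at 11.10, 10.83 and 11.08 in large polysomal RNA and 9.50, 9.34 and 9.14 in non-polysomal RNA (1.67 ± 0.23, adjusted p = 3.98e-07). ACS, acetyl-CoA synthetase, was higher by 1.24 ± 0.24. The isocitrate dehydrogenase genes were split, with IDH-VI higher by 0.99 ± 0.24 and IDH-V lower (-0.73 ± 0.20). SDP1-LIKE, related to a lipase of oil bodies, was at 3.74, 3.61 and 3.67 in large polysomal RNA and 6.58, 7.05 and 6.69 in non-polysomal RNA (-3.10 ± 0.28, adjusted p = 1.57e-10). Its groups were separate, and it was the lowest of the 18. Its relative SDP1, named after its values were seen, was higher by 0.72 with overlapping groups. The 9 higher calls became 5 without replicate 2 and 5 without replicate 3.

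For the nuclear genes of photosynthesis the scaling of the arrays mattered. Among 9 photosystem and electron transport subunits, NdhN of the chloroplast NADH dehydrogenase-like complex was at 8.92, 9.06 and 8.93 in large polysomal RNA and 7.17, 7.66 and 7.17 in non-polysomal RNA (1.63 ± 0.25, adjusted p = 1.91e-06). PSBY of photosystem II was at 13.16, 13.19 and 13.06 in large polysomal RNA and 11.71, 11.59 and 11.86 in non-polysomal RNA (1.41 ± 0.18, adjusted p = 1.09e-07). Both had separate groups, and ATPC1 of the ATP synthase also passed (0.81 ± 0.23; 0.65, adjusted p = 0.060 without replicate 3). NdhL, of the same complex as NdhN, was lower (-0.70 ± 0.21), a call that ended without replicate 1 (-0.65, adjusted p = 0.053) and after cyclic loess between arrays (-0.34, adjusted p = 0.125). With cyclic loess 6 of the 9 were higher and none lower. Of 9 genes for chlorophyll and carotenoids, HEMB1 (2.34 ± 0.25), an early enzyme of the pathway, CHLI2 (1.40 ± 0.27), of magnesium chelatase, and GSA1 (0.85 ± 0.34) were the highest of 4 that rose (2 without replicate 2), GSA1 only with all 3 replicates (0.74 to 0.92 without 1, adjusted p = 0.079 to 0.146). CHLM (-0.45 ± 0.19) and the carotenoid cyclase gene LYC (-0.46 ± 0.19) were lower, and both calls ended with cyclic loess (-0.05 and -0.28) and without replicate 1, 2 or 3 (-0.55 to -0.39).

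The antenna protein CP29 has 3 genes here, of which LHCB4.3 was higher (0.94 ± 0.29, adjusted p = 0.006) and LHCB4.2 lower (-0.50 ± 0.21, adjusted p = 0.043). LHCB4.1 stood at -0.26 ± 0.15. The call of LHCB4.2 ended with cyclic loess (-0.05) and without any one replicate (-0.55 to -0.45). Of 8 genes of the Calvin-Benson cycle and photorespiration, AT1G56190 (0.71 ± 0.24) and AT1G11860 (0.54 ± 0.22) were higher and AT1G32470 was lower (-0.43 ± 0.15). Without replicate 2 the first came to 0.58 and the second to 0.25, neither past the test (adjusted p = 0.104 and 0.464). AT1G11860 also missed the test without replicate 3 (0.61, adjusted p = 0.082), and AT1G32470 missed it without replicate 1 (-0.29, adjusted p = 0.169) and turned to 0.05 with cyclic loess. Of 8 genes of starch and sucrose metabolism 4 were higher and 1 lower; SBE2.2, a starch branching enzyme, was at 11.40, 10.92 and 10.70 in large polysomal RNA and 10.12, 9.31 and 9.55 in non-polysomal RNA (1.35 ± 0.23). ATSPS4F, a sucrose phosphate synthase, was higher by 1.04 ± 0.17. The gene table gives the symbol PWD, phosphoglucan water dikinase, to both AT5G26570 (1.42 ± 0.26) and AT4G24450 (-1.37 ± 0.34), which moved in opposite directions.

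Genes of protein breakdown were divided. Of 32 tested genes of the ubiquitin system 10 were higher and 5 lower (11 and 9 with the replicate block; 2 lower without replicate 1 and without replicate 3), and the share that was higher is near the 28.7% of all genes. UBC28, a ubiquitin-conjugating enzyme, was at 10.61, 10.88 and 10.87 in large polysomal RNA and 12.80, 12.85 and 12.79 in non-polysomal RNA (-2.03 ± 0.19, adjusted p = 4.36e-10). Both groups were narrow and they were far apart. UBP16 (1.79 ± 0.26) and UBP26 (1.63 ± 0.23), proteases that remove ubiquitin, and the conjugating enzyme gene UBC29 (1.28 ± 0.24) were higher. PEX4, a ubiquitin-conjugating enzyme of peroxisomes (-0.95 ± 0.40), and UBC18 (-0.86 ± 0.24) were lower, PEX4 only with all 3 replicates (-0.98 to -0.91 without 1, adjusted p = 0.074 to 0.119). Within the ATG8 family, small ubiquitin-like proteins that are attached to autophagosome membranes, 5 of 9 were higher and 3 lower. ATG8G was at 7.38, 7.18 and 7.20 in large polysomal RNA and 4.87, 5.55 and 5.06 in non-polysomal RNA (2.09 ± 0.31, adjusted p = 9.5e-07). ATG8H was higher by 1.83 ± 0.28 and ATG8D by 1.17 ± 0.23. ATG8B was at 8.48, 8.22 and 8.38 in large polysomal RNA and 9.18, 9.53 and 9.18 in non-polysomal RNA (-0.94 ± 0.23, adjusted p = 0.000941), and its groups were separate in the other direction. APG8H (-0.73 ± 0.23) and ATG8C (-0.61 ± 0.23) were lower too; both calls ended with cyclic loess (-0.39 and -0.31), and that of ATG8C without replicate 2 (-0.43, adjusted p = 0.208). In place of 5 rises, 3 were counted without replicate 1 and 3 without replicate 3.

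Transcripts of cytosolic ribosomal proteins lay toward non-polysomal RNA. Of 111 tested genes of this list by AGI code (131 on the array), 65 were lower in large polysomal RNA, 11 were higher and 35 did not pass. Their median was -0.69, and in same-numbered pairs it was -0.79, -0.47 and -0.83. AT3G14600 was at 10.01, 10.59 and 10.31 in large polysomal RNA and 12.09, 12.45 and 12.23 in non-polysomal RNA (-1.95 ± 0.21, adjusted p = 3.63e-09). AT3G22230 was at 8.30, 9.10 and 8.99 in large polysomal RNA and 10.34, 10.87 and 11.02 in non-polysomal RNA (-1.95 ± 0.26). Both had all large polysomal arrays below all non-polysomal arrays, as did 71 of the 111. AT2G40010 was lowest of all (-2.74 ± 0.35), with a large polysomal mean near the scale's lower end. The exceptions were as sharp: AT4G34555 was at 10.86, 10.77 and 10.31 in large polysomal RNA and 8.57, 8.68 and 8.34 in non-polysomal RNA (2.11 ± 0.24, adjusted p = 1.62e-08). AT4G30800 (2.01 ± 0.30) and AT3G04840 (1.51 ± 0.22) were higher as well. With cyclic loess 53 were lower and 17 higher, with a median of -0.34, and without replicate 2 the higher calls fell to 7. Plastid ribosomal proteins encoded in the nucleus gave 3 higher and 5 lower of 13 (7 and 5 with cyclic loess, 3 and 3 without replicate 1), with AT1G64510 (1.99 ± 0.28), AT3G13120 (1.06 ± 0.27) and AT5G24490 (0.93 ± 0.22) higher and AT3G20230 (-1.27 ± 0.22), AT1G29070 (-1.22 ± 0.22) and AT5G65220 (-0.99 ± 0.18) the lowest.

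Genes of RNA processing were mostly lower. Of 15 tested genes, 11 fell, 1 rose and the median was -1.19. LSM3B, of the Sm-like ring proteins that act in splicing and mRNA decay, was at 7.97, 8.38 and 8.34 in large polysomal RNA and 10.89, 11.37 and 11.27 in non-polysomal RNA (-2.95 ± 0.22, adjusted p = 5.63e-12). LSM6B was at 5.31, 5.33 and 5.32 in large polysomal RNA and 7.68, 7.27 and 7.43 in non-polysomal RNA (-2.14 ± 0.29). ATRBP45C, an RNA-binding protein, was lower too (-1.78 ± 0.31). The 6 tested LSM genes were all among the 11 that fell, and 11 falls were also counted without each replicate in turn. SE, a zinc-finger protein of microRNA processing, was the 1 that rose (0.69 ± 0.24), and its call ended without replicate 3 (0.52, adjusted p = 0.159). With the replicate block 2 rose, and with cyclic loess 3.

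Genes for short secreted peptides were also mostly lower, with 9 of 16 tested down, 2 up and a median of -0.89. RALFL32, of the RALF family that alkalinises the cell wall space, was at 7.68, 8.12 and 8.54 in large polysomal RNA and 10.09, 10.91 and 11.09 in non-polysomal RNA (-2.58 ± 0.31, adjusted p = 3.02e-08). STOMAGEN, a peptide that promotes stomata, was at 10.56, 10.71 and 10.81 in large polysomal RNA and 12.59, 12.71 and 12.50 in non-polysomal RNA (-1.91 ± 0.17, adjusted p = 2.08e-10). CLE41, a precursor of the peptide that keeps vascular stem cells dividing, was at 5.44, 6.73 and 5.99 in large polysomal RNA and 7.97, 8.40 and 8.56 in non-polysomal RNA (-2.26 ± 0.35). The groups of all 3 were separate. The 2 that rose were the defensin genes LCR67 (2.04 ± 0.79) and PDF2.1 (1.89 ± 0.40), and LCR67 passed only with all replicates (1.78 to 2.21 without 1, adjusted p = 0.067 to 0.144). The list's tested genes span a median of 960.5 bp, against 2309 bp for all tested genes.

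Of 41 tested transcription factor genes 15 were lower, 9 higher and the median was -0.13. Of all genes 30.5% were lower and 28.7% higher. AGL26 is the symbol of AT5G26880 in the gene table, and its role was not checked. It was at 6.69, 6.71 and 6.57 in large polysomal RNA and 8.95, 9.02 and 8.88 in non-polysomal RNA (-2.29 ± 0.19, adjusted p = 3.54e-11), with narrow and separate groups. bHLH121 (-1.92 ± 0.26) and BPC1 (-1.79 ± 0.21) were next. ZAP1, a WRKY factor, was at 9.82, 9.85 and 9.90 in large polysomal RNA and 8.06, 8.52 and 8.48 in non-polysomal RNA (1.51 ± 0.22), the most raised of the 41. BZIP61 (0.87 ± 0.34) and BZIP17 (0.83 ± 0.29) rose less; without replicate 2 both missed the test (0.67 and 0.71, adjusted p = 0.157 and 0.099), without replicate 3 BZIP61 did (0.88, adjusted p = 0.091), without replicate 1 BZIP17 did (0.83, adjusted p = 0.063), and the 9 higher calls became 5 without replicate 2. Subunits of nuclear RNA polymerases and of Mediator, which carries signals from transcription factors to RNA polymerase II, gave 6 higher and 4 lower of 14, with 2 higher without replicate 1. Of these, NRPB9B of RNA polymerase II was at 8.83, 8.58 and 8.66 in large polysomal RNA and 6.29, 6.95 and 6.77 in non-polysomal RNA (2.02 ± 0.24). NRPB6A (0.71 ± 0.24; 0.64, adjusted p = 0.087 without replicate 3) and NRPB7 (0.69 ± 0.21; 0.60, adjusted p = 0.057 without replicate 1) were higher by less. MED19A (-1.78 ± 0.26), NRPD7 (-1.71 ± 0.25) and MED6 (-1.40 ± 0.20) were lower.

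Methionine sulfoxide reductases, which repair oxidised methionine, showed members far apart. MSRB9 was at 6.23, 6.80 and 6.05 in large polysomal RNA and 3.65, 4.43 and 3.90 in non-polysomal RNA (2.37 ± 0.25, adjusted p = 4.72e-09). MSRA5 was at 5.37, 6.19 and 5.63 in large polysomal RNA and 8.05, 8.11 and 8.37 in non-polysomal RNA (-2.45 ± 0.24, adjusted p = 6.62e-10). MSRB5 (-1.85 ± 0.19) and MSRB3 (-1.01 ± 0.20) were also lower, and MSRB6 stood at -0.27 ± 0.26. The family thus held 1 higher and 3 lower of 5 tested genes, with the groups of these 4 separate.

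**Figure D2:**
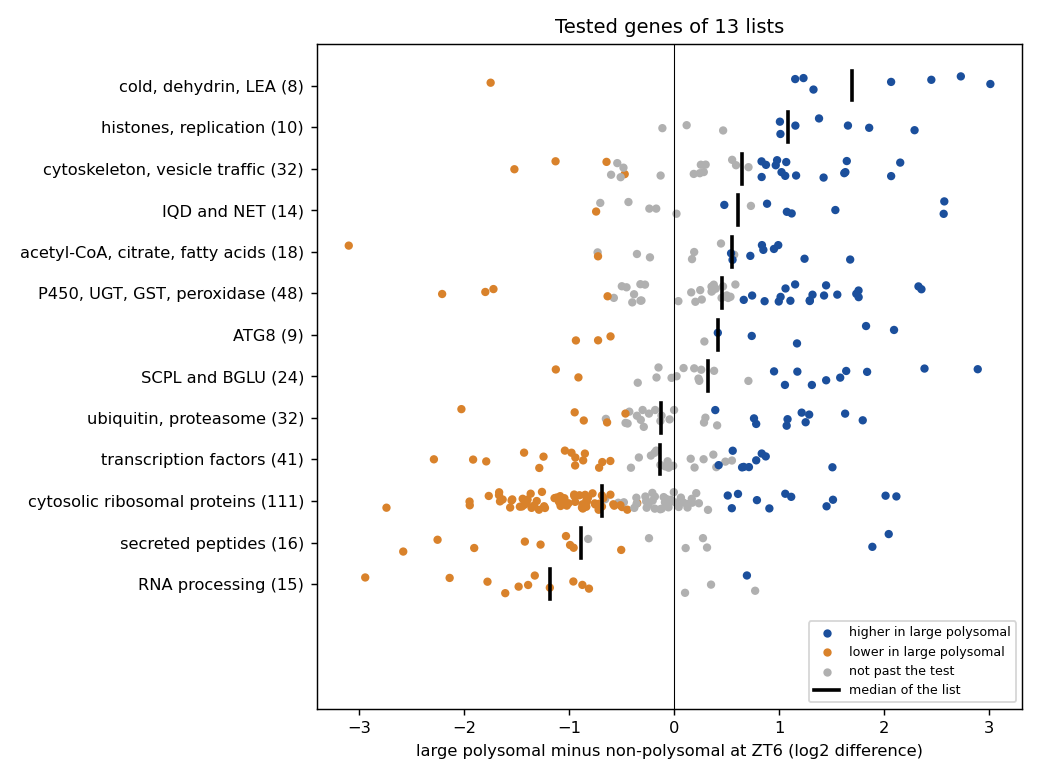
Large polysomal minus non-polysomal difference at ZT6 (log2, horizontal axis) for every tested gene of 13 lists, with the number tested in brackets; each point is a gene, blue where higher, orange where lower and grey where not past the test, and the bar is the list's median. The medians run from 1.69 for the cold list to -1.19 for RNA processing.

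Smaller or evenly split lists follow, to be read against the 28.7% higher and 30.5% lower of all genes. Of 11 heat shock and chaperone genes 6 were higher and 1 lower, but 3, 2 and 3 were higher without replicates 1, 2 and 3. Hsp70-2 (1.96 ± 0.30), AT5G48570 (1.63 ± 0.36) and the chaperonin gene Cpn60beta3 (0.88 ± 0.32; 0.80 to 0.95 without any one replicate, adjusted p = 0.052 to 0.096) led the higher ones. Cpn60beta4 was lower (-0.58 ± 0.22), a call that ended with cyclic loess (-0.39) and without replicate 2 (-0.46) or 3 (-0.57). The nuclear genes of the mitochondrial chain gave 3 higher and none lower of 11 (4 and 1 with the block, 5 and none with cyclic loess, 1 higher without replicate 1 and without replicate 2). SDH1-1, of succinate dehydrogenase, was at 8.33, 8.55 and 8.80 in large polysomal RNA and 6.55, 6.29 and 6.47 in non-polysomal RNA (2.13 ± 0.31). The calls of the cytochrome c gene CYTC-2 (1.03 ± 0.34) and of SDH2-1 (0.72 ± 0.28) ended without replicate 1 (0.98 and 0.63) and without replicate 2 (0.87 and 0.61), that of SDH2-1 also with probe sets averaged (0.32).

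Cell wall genes gave 6 higher and 9 lower of 30 (3 higher without replicate 3), of which the lower share is near the 30.5% of all genes. EXLB1, an expansin-like gene (1.51 ± 0.37), AT2G31110 (1.24 ± 0.30) and CSLD2, of the cellulose synthase-like family (1.17 ± 0.22), were the highest. TBL32 (-2.09 ± 0.25), whose probe set is shared with other transcripts, and TBL37 (-1.82 ± 0.21), of a family that acetylates the wall, were the lowest with the expansin gene EXPA20 (-1.41 ± 0.26). Transporters gave 4 higher and 3 lower of 14 (5 lower with the block, 2 higher without replicate 3), of which the higher share is near the 28.7% of all genes. VHA-A3 of the vacuolar proton pump (1.15 ± 0.28), AT3G58730 (1.14 ± 0.26) and AT1G68570 (0.81 ± 0.26; 0.68 and 0.69 without replicates 1 and 3, adjusted p = 0.081 and 0.087) were the highest. The sugar transporter genes SAG29 (-1.75 ± 0.41) and SWEET17 (-1.41 ± 0.26) and the metal transporter gene MTP11 (-1.54 ± 0.17) were lower.

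Aldehyde dehydrogenases gave 3 higher and 2 lower of 8 (5 and 1 with cyclic loess, 1 lower without replicate 1). ALDH6B2 (0.75 ± 0.25; 0.64, adjusted p = 0.079 without replicate 3), ALDH22A1 (0.74 ± 0.20) and ALDH3F1 (0.71 ± 0.20; 0.50, adjusted p = 0.091 without replicate 1) were higher. ALDH11A3 (-0.91 ± 0.28; -0.56, adjusted p = 0.165 without replicate 1) and ALDH10A8 (-0.79 ± 0.20; -0.43, adjusted p = 0.060 with cyclic loess) were lower. RING and U-box ligases gave 2 higher, the SUMO ligase gene SIZ1 (1.58 ± 0.29) and PUB43 (1.08 ± 0.20), and none lower of 11 (2 lower with the block). Kinases and phosphatases gave 2 and 2 of 9 (1 higher without replicate 2 and without replicate 3), with THE1, a receptor kinase that senses the cell wall (1.57 ± 0.41), the highest, and TOPP7 and the MAP kinase gene ATMPK13 (-1.40 ± 0.23) lower. Of 6 tetraspanins TET7 was higher (0.85 ± 0.16), TET10 (-0.94 ± 0.28) and TET3 (-0.79 ± 0.24) were lower, and TET2 (0.03), TET8 (-0.16) and TET6 (-0.29) did not pass. OASA2, related to cysteine synthases, was lower (-1.88 ± 0.34), and OTC, of arginine synthesis, stood at -0.03.

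None of 6 phenylpropanoid and flavonoid genes passed, with UGT78D2 at 0.46, CHIL at 0.44, ALDH2C4 at 0.26, UGT78D1 at 0.16, HCT at -0.27 and DFR at -0.81. With cyclic loess 2 were higher, and with the replicate block UGT78D2 was higher (0.46) and DFR lower (-0.81). None of 3 ribosome biogenesis genes passed, with AT3G09720 at 0.37, RRP41 at -0.38 and RRP41L at -0.39; with the block RRP41, an exosome subunit, was lower (-0.38). GI, a clock-linked gene, was at 7.67, 7.28 and 7.28 in large polysomal RNA and 6.13, 5.53 and 5.75 in non-polysomal RNA (1.60 ± 0.25, adjusted p = 2.65e-06), with separate groups. Among the sampled times its means were highest at ZT6, followed by ZT12 with 6.42 in large polysomal and 4.30 in non-polysomal RNA. Of the same list AT5G52660 was higher (0.65 ± 0.19; 0.54, adjusted p = 0.054 without replicate 3) and HYH stood at -0.42 ± 0.32. EIF4A-2, an RNA helicase of translation initiation, was at 9.66, 9.68 and 10.22 in large polysomal RNA and 8.54, 8.24 and 8.70 in non-polysomal RNA (1.36 ± 0.23).

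The small polysomal arrays of ZT6 show where between the outer fractions a group parted. Large minus small differences passed for 963 genes upward (14.1%) and 1316 downward (19.2%), and small minus non-polysomal differences for 1251 (18.3%) and 1241 (18.1%). Leaving out replicate 1, 2 or 3 of ZT6 gave 630, 652 and 433 upward and 953, 947 and 772 downward calls for large minus small, and 788, 831 and 761 upward and 817, 910 and 748 downward calls for small minus non-polysomal. These comparisons share arrays with each other and with large against non-polysomal RNA. Among cytosolic ribosomal proteins 18 of 111 were down and 15 up in large relative to small polysomes (median -0.10), while 65 were down and 8 up in small polysomes relative to non-polysomal RNA (median -0.57). Genes of RNA processing fell at both steps, with 8 of 15 down in large relative to small (median -0.61) and 7 down in small relative to non-polysomal RNA (median -0.54). In the ATG8 family 5 of 9 were up and none down in large relative to small polysomes, and 1 was up and 3 down in small polysomes relative to non-polysomal RNA. ATG8H, for example, averaged 8.49 in large, 6.87 in small and 6.66 in non-polysomal RNA.

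Genes with a conserved-peptide upstream open reading frame, a short reading frame in the leader whose peptide can stall ribosomes, had the following steps. Of 14 tested, 1 was up and 4 down in large relative to small polysomes (median -0.39), and 8 were up and none down in small polysomes relative to non-polysomal RNA (median 0.58). AT1G67480 averaged 8.06 in large, 9.20 in small and 8.55 in non-polysomal RNA, so that small exceeded both neighbours (large minus small -1.14, adjusted p = 6.81e-05; small minus non-polysomal 0.64, adjusted p = 0.012). BZIP53, a transcription factor of this list, averaged 9.42 in large, 10.57 in small and 10.40 in non-polysomal RNA (large minus small -1.16, adjusted p = 0.00425; small minus non-polysomal 0.18, adjusted p = 0.695). Against non-polysomal RNA the large polysomal values of the list gave 6 higher and 3 lower (median 0.36), with 3 higher without replicate 3, and 1 lower without replicate 1 and with cyclic loess. The higher ones were led by AT5G15950 (1.07 ± 0.36; 0.95, adjusted p = 0.083 without replicate 2 and 1.05, adjusted p = 0.062 without replicate 3), AT3G12010 (0.84 ± 0.25) and AT1G73600 (0.76 ± 0.25; 0.67, adjusted p = 0.069 without replicate 3). The lower ones were BZIP53 (-0.98 ± 0.31; -0.66, adjusted p = 0.076 with cyclic loess), AT3G25570 (-0.84 ± 0.33; -0.64, adjusted p = 0.207 without replicate 1 and -0.88, adjusted p = 0.067 without replicate 3) and AT1G67480 (-0.49 ± 0.20), whose call ended with cyclic loess (-0.30) and without replicate 1 (-0.37) or 2 (-0.46). The peptide gene CLE41 averaged 6.05 in large, 8.60 in small and 8.31 in non-polysomal RNA (large minus small -2.54, adjusted p = 3.32e-06; small minus non-polysomal 0.29, adjusted p = 0.557).

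**Figure D3:**
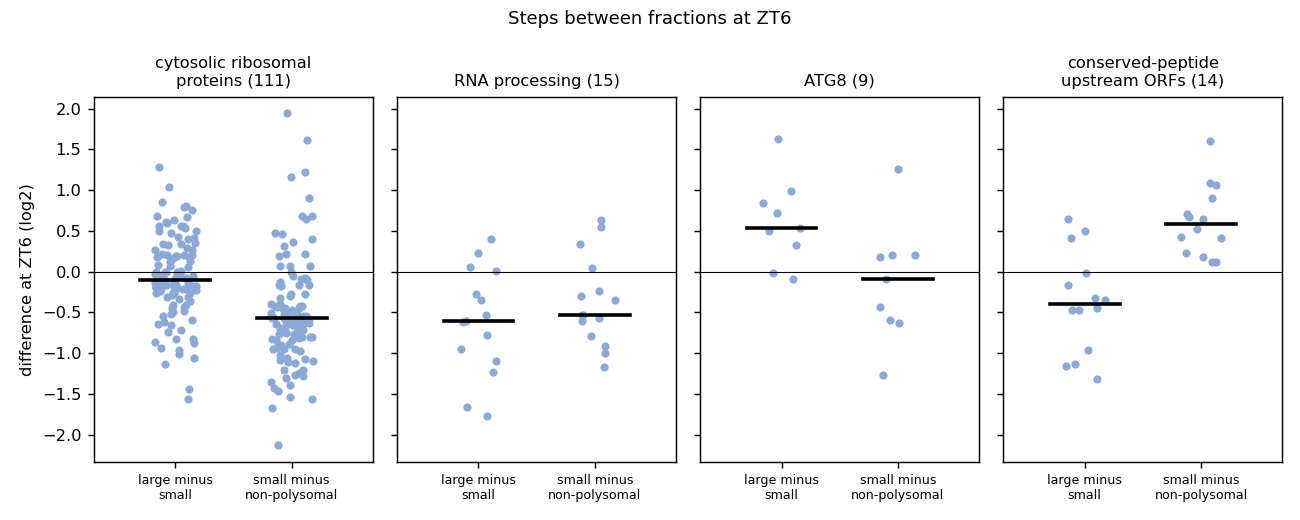
The steps between fractions at ZT6 (log2 difference, vertical axis), large minus small polysomal on the left and small polysomal minus non-polysomal on the right of each panel, for the tested genes of 4 lists; each point is a gene and the bar the median. Ribosomal protein genes lie lower at the second step (median -0.57) than at the first (-0.10), and the genes with upstream reading frames lie below 0 at the first (-0.39) and above it at the second (0.58).

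Plastid-encoded transcripts were measured as well, with the reservation that plastid mRNAs mostly lack long poly(A) tails while the labelling was primed with oligo(dT). Plastids translate them on their own ribosomes. Of 62 tested plastid genes (69 on the array) 3 rose and 10 fell in large polysomal RNA, with a median of -0.59. Both shares were below the 28.7% higher and 30.5% lower of all genes. With the replicate number as a block these became 13 and 33. The higher share was then still below the 32.7% of all genes in that fit, but the lower share was above their 34.3%. The cause of the change with the block was not tested. psbD, for the D2 protein of photosystem II, was at 6.78, 8.70 and 8.56 in large polysomal RNA and 3.68, 5.80 and 4.93 in non-polysomal RNA (3.21 ± 1.20, adjusted p = 0.022), higher in the large polysomal member of each pair. atpB, of the plastid ATP synthase, was at 11.08, 12.57 and 12.66 in large polysomal RNA and 9.29, 10.91 and 10.32 in non-polysomal RNA (1.93 ± 0.74). rps16, for a plastid ribosomal protein, was at 6.01, 8.12 and 7.83 in large polysomal RNA and 9.97, 11.06 and 10.68 in non-polysomal RNA (-3.25 ± 0.80, adjusted p = 0.000811), lower in every pair. rps19 was higher by 1.73 ± 0.65 (1.55, adjusted p = 0.116 without replicate 1 and 1.65, adjusted p = 0.105 without replicate 3) and ccsA lower (-2.42 ± 0.86; -2.57 to -2.15 without any one replicate, adjusted p = 0.051 to 0.091). Without the block, 0 or 1 were higher and 5 or 6 lower when a replicate was left out, and the calls of psbD (3.00 to 3.37) and atpB (1.72 to 2.06) then ended without replicate 1, 2 or 3. With all replicates but no filter on dim genes 0 were higher and 7 lower, so the calls of psbD, atpB and rps19 ended there too. With only the 6 arrays fitted, 6 were higher and 19 lower. Of 6 tested mitochondrial genes (16 on the array), none were higher, 2 were lower, ccb452 (-2.05 ± 0.64), whose probe set is shared with other transcripts, and ccb382 (-1.48 ± 0.61), and the median was -1.42; with the block all 6 were lower, with nad4 (-1.44), nad5 (-1.41, also a shared probe set), cox1 (-1.21) and nad1 (-0.91). Without replicate 2 the call of ccb452 (-1.90, adjusted p = 0.054) and without any one replicate that of ccb382 ended (-1.64 to -1.25). The 2 lower mitochondrial calls became 1 with no filter on dim genes and 6 with only the 6 arrays fitted.

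The loading of plastid genes was also least negative at ZT6. Their median difference between large polysomal and non-polysomal RNA was -1.0, -1.33 and -1.78 in the 3 replicates at ZT0, -0.70, -0.52 and -0.39 at ZT6, -1.22, -1.73 and -1.45 at ZT12 and -2.23, -2.24 and -2.19 at ZT18. The ZT6 replicates lie above all others. In 59 of the 62 genes the mean loading at ZT6 exceeded that at each other time, against 25.3% of all genes. The median plastid gene was at 8.50 in large polysomal RNA at ZT6, near its 8.57, 8.62 and 8.87 at ZT0, ZT12 and ZT18, and at 9.19 in non-polysomal RNA at ZT6, against 9.81, 10.08 and 10.80 at those times. Loading at ZT6 minus the mean of the other times passed the test for none of the 62 without the block (median 1.09) and for 43 with it, all higher, against 1.87% of all genes. Among these psbB, for a chlorophyll protein of photosystem II, had a loading of 0.48 at ZT6 and -1.62, -1.47 and -2.40 at ZT0, ZT12 and ZT18; it is named after its values were seen, as the largest difference of the list (2.31). In the blocked fit 31, 32 and 12 of the 62 were higher without replicates 1, 2 and 3 of ZT6.

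Cytosolic ribosomal protein genes had their lowest median loading at ZT6, -0.79, -0.47 and -0.83, against -0.24, -0.19 and -0.36 at ZT0, -0.78, -0.47 and -0.25 at ZT12 and -0.13, -0.03 and -0.01 at ZT18. The ZT6 and ZT12 replicates overlapped, and ZT6 was below ZT0 and ZT18. Tested gene by gene against the mean of the other times, 2 of the 111 were lower at ZT6, against 0.979% of all genes, and none higher; no call was left without any one replicate. With the block 7 were lower, against 5.46% of all genes, and 0, 5 and 0 without replicates 1, 2 and 3. Both shares are near those of all genes, so the counts single out nothing about ribosomal protein genes. Genes for secreted peptides had median loadings of -0.73, -0.70 and -0.98 at ZT6, against 0.17, -0.03 and -0.28 at ZT0, -0.58, -0.46 and -0.09 at ZT12 and 0.52, 0.20 and 0.04 at ZT18. Of the 16, none passed against the other times without the block and 3 were lower with it, or 1, 2 and 0 without replicates 1, 2 and 3.

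**Figure D4:**
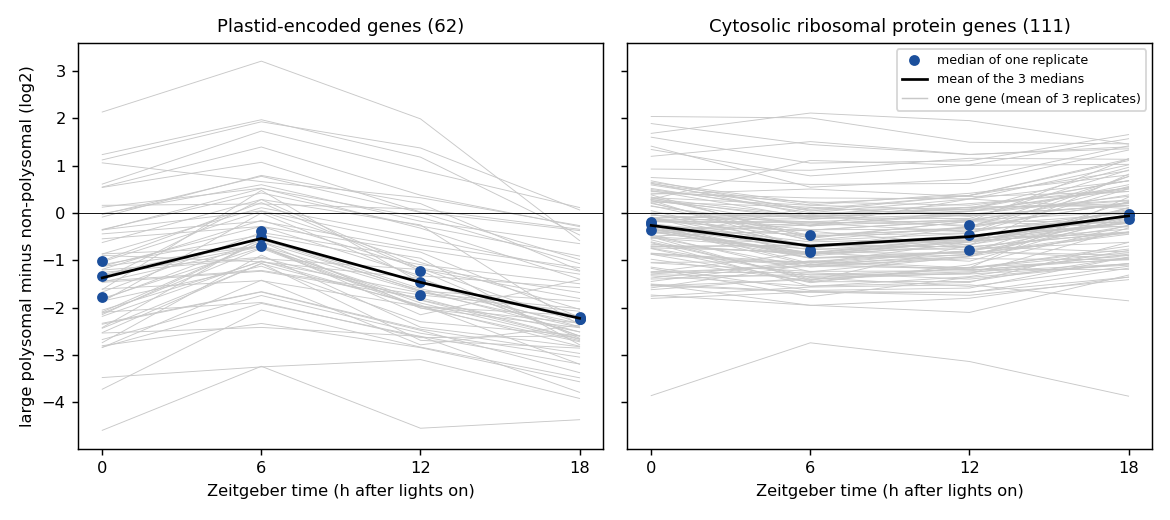
Large polysomal minus non-polysomal difference (log2, vertical axis) at the 4 times (hours after lights on, horizontal axis) for the 62 plastid-encoded (left) and 111 cytosolic ribosomal protein genes (right); grey lines are single genes (mean of 3 replicates), blue points the median over the list in 1 replicate and the black line their mean. Plastid genes are highest at ZT6 (-0.54 as the mean of the medians) and ribosomal protein genes lowest there (-0.70).

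Over all genes, loading at ZT6 minus its mean at ZT0, ZT12 and ZT18 passed the test in 70 genes (1.02%), of which 3 were higher (0.0438%) and 67 lower (0.979%) at ZT6. With the replicate block these were 128 (1.87%) and 374 (5.46%). Without the block the counts fell to 0 and 0 without replicate 1, 0 and 17 without replicate 2, and 0 and 0 without replicate 3 of ZT6; at an unadjusted p under 0.05 there were 292 higher and 745 lower genes. AT5G01870 had a loading of 0.84, 0.83 and 0.67 at ZT6, against means of 2.52 at ZT0, 2.18 at ZT12 and 2.76 at ZT18. At ZT6 it was closer to 0 than any replicate of the other times, a difference of -1.71 ± 0.35 (SE, adjusted p = 0.015). AT4G13720 had -1.56, -0.73 and -1.34 at ZT6 and means of 0.28, -0.30 and 0.89 at ZT0, ZT12 and ZT18 (-1.50 ± 0.28, adjusted p = 0.015), and its ZT6 and ZT12 replicates overlapped. Among the higher genes, TRM21, of a family named for a motif that recruits the microtubule protein TON1, had 1.51, 1.78 and 2.28 at ZT6, against means of 0.44, 0.70 and 1.23 at the other times (1.06 ± 0.27, adjusted p = 0.047). AT1G17160 had 0.17, 0.01 and 0.35 at ZT6, against -1.51 at ZT0, -0.08 at ZT12 and -1.11 at ZT18 (1.07 ± 0.23, adjusted p = 0.016). Its ZT6 and ZT12 replicates overlapped, and its non-polysomal mean was 9.16 at ZT6 and 11.31, 9.55 and 10.65 at the other times.

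Longer genes were more often loaded. The span of a gene, from start to end with introns, stood in for the length of its mRNA, since no transcript or protein lengths were used here. Among 6822 genes with a span, split into 4 groups of about equal size, the shortest (78 to 1691 bp) had a median difference of -0.36, with 19.7% called higher and 41.3% called lower. In the longest group (3207 to 26499 bp) the median was 0.41, with 43.9% higher and 15.8% lower. The groups between them had medians of -0.19 and 0.02. The rank correlation across genes between span and difference was 0.27 (0.21, 0.27 and 0.29 in the 3 pairs), and 0.22, 0.23 and 0.13 at ZT0, ZT12 and ZT18; genes share arrays and are not independent, so no p is given. List medians of span were 1567 bp for cytosolic ribosomal proteins, 2244 bp for RNA processing, 1865.5 bp for the cold list, 2138.5 bp for histones and replication and 3702.5 bp for IQD and NET genes.

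**Figure D5:**
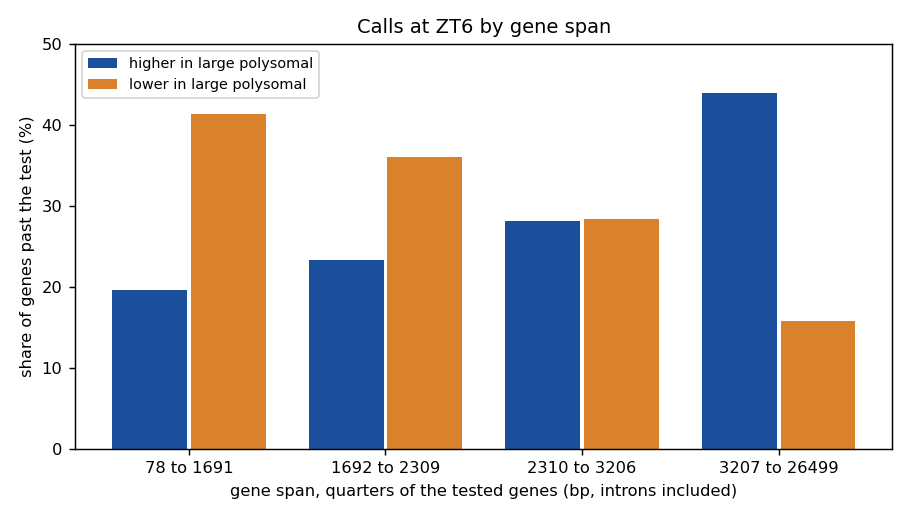
Share of genes (%, vertical axis) called higher (blue, left bar) or lower (orange, right bar) in the large polysomal fraction at ZT6, against the non-polysomal one, in 4 groups of genes by span (bp, introns included). The higher share grows with span, 19.7% in the shortest group and 43.9% in the longest, and the lower share shrinks, 41.3% and 15.8%.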

How the data were processed

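Aerial parts of seedlings were profiled in 12 groups of 3 arrays. The authors deposited log2 expression values, summarised by GCRMA (affy 1.42.3, R 3.1) according to the submitters' processing notes. Per the labels, reverse transcription used oligo(dT), and labelled cRNA went onto Affymetrix arrays. Array precision is limited by the number of arrays. Of 22810 probe sets (64 controls), 13513 name 1 gene, 503 several and 8730 are unlisted. Gene names came from TAIR10.1, where 13285 of 13355 genes matched. A gene was tested where its brightest single-gene probe set averaged at least 4. Large minus non-polysomal, the steps through small polysomes and the difference from other times were contrasts in one limma 3.58.1 fit (R 4.3.3) of all 36 arrays, Benjamini-Hochberg adjusted, 2-sided, threshold 0.05, tested on simulated data. Same-numbered large and non-polysomal deviations correlated (0.44, 0.32 and 0.36), so the numbers were taken to pair the fractions. The labels do not state whether a shared number marks a shared harvest, and the correlation cannot tell this from shared handling. The main fit left this pairing out, and so do its SEs, p-values and calls. A replicate block was an alternative fit. Alternatives also changed centring, cyclic loess, the dim filter, the variance model, the probe sets, the arrays fitted and the replicates kept. Genes named are the 5 largest in each direction, the 10 largest with a symbol, 3 near the scale's end, the 3 largest called in each list, and 6 for the difference from other times, with every member of lists of up to 6. The 41 lists, some edited after values were seen, and the samples were chosen with earlier results of these data known. Gene lists by AGI code rest on that code alone. The roles of list members were not checked against their symbols, such as SK18 among the kinases, CHC1 in membrane traffic and PGM in starch metabolism. Counts and medians therefore describe the lists as written. Protein lengths and sequences were not used here.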

Additional observations from a re-analysis of the deposited data

Results flagged for a closer look

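In 9 genes the loading at ZT6, large polysomal minus non-polysomal, differed from the mean of the other times by limma's test of that difference, among the largest in each direction. Lower at ZT6 were AT2G47880 by a log2 difference of -2.57, AT5G01870 by -1.71, AT5G06270 by -1.61, AT4G13720 by -1.5, AT3G03000 by -1.5 and AT5G16220 by -1.45. Higher were AT4G03100 by 0.95, TRM21 by 1.06 and AT1G17160 by 1.07. AT2G47880 had loadings of -2.86, -2.38 and -2.91 at ZT6, with means of -0.10, -2.01 and 1.66 at ZT0, ZT12 and ZT18, and its large polysomal mean was 3.40 at ZT6, near the lower end of the scale. At ZT0 both of its means were near that end, at 2.65 in large polysomal and 2.75 in non-polysomal RNA, so the scale limits the loading there. Its ZT6 and ZT12 replicates overlapped (-2.15, -2.70 and -1.19 at ZT12). All 9 kept their direction without each ZT6 replicate in turn, and none kept its call without replicate 1 or without replicate 3. In the fit with the replicate block all 9 passed, and without replicate 3 of ZT6 the blocked calls of AT5G06270, AT4G03100 and TRM21 ended.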

How the results depend on the processing

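Of the 212 genes named or looked up for large polysomal against non-polysomal RNA, 155 stayed on the same side of the test with the same sign under every alternative run. The 1 sign change was AT1G32470, at 0.0501 with cyclic loess. With every probe set tested rather than 1 per gene, 4117 were higher and 3489 lower, 2118 and 2111 for large against small, 2458 and 2107 for small against non-polysomal, and 16 and 109 for the difference from the other times; 12719 features then replaced 6845. Without 1 ZT6 replicate the counts ranged over 1551 to 1646 higher and 1760 to 1824 lower for large against non-polysomal, 433 to 652 and 772 to 953 for large against small (lowest without replicate 3), and 761 to 831 and 748 to 910 for small against non-polysomal. The difference from other times depended most on the fit: 3 higher and 67 lower became 128 and 374 with the replicate block, 6 and 38 with median centring, 33 lower with cyclic loess and 11 higher with no filter on dim genes. Leaving out a ZT6 replicate gave 0 to 0 higher and 0 to 17 lower without the block, and with it, an alternative chosen after seeing the data, 43 and 82, 102 and 277, and 17 and 25 without replicates 1, 2 and 3. The cause of these changes was not tested. For large polysomal against non-polysomal RNA the block changed no call of a named gene other than those of UGT78D2, DFR, RRP41, nad4, nad5, cox1 and nad1, given with their lists. The rank correlation of gene span, an alternative description added after seeing the data, was 0.27 with a minimum mean of 6 and 0.24 with cyclic loess. The planned description by protein length was not run. Dim genes limit the sizes of differences, since values end at 2.20.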
